A study of Homo sapiens with 12 samples.

Results

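The 7 genes described here, TM7SF2, MSMO1, NSDHL, HSD17B7, EBP, SC5D and DHCR7, encode enzymes that turn the sterol left by CYP51A1 into cholesterol. They were chosen by symbol, and all 7 were found in each of 3 expression tables, which hold 16491, 18217 and 55744 genes. All 7 were above 1 FPKM in every library, so none was lost to the filter on low values. The libraries came from HCC70 and MDA-MB468, established human cell lines of triple-negative breast cancer (TNBC), and each culture was treated for 24 h. In HCC70 the 5 treatments were vehicle, XY018 at 1.25 μM, XY018 at 2.5 μM, atorvastatin (ATV) at 1.25 μM, and the combination of both compounds at 1.25 μM. The same 5 were given to MDA-MB468, and a further table holds MDA-MB468 with vehicle and with GSK805 at 2.5 μM. XY018 and GSK805 are antagonists of the nuclear receptor RORγ, and ATV is a statin, an inhibitor of HMG-CoA reductase. Each of the 12 conditions had 1 library, so the differences below have no check by replicates, and p-values are left out.

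Cholesterol synthesis runs from acetyl-CoA through mevalonate and squalene to lanosterol, the first sterol with the ring system of cholesterol. The late steps take place in the endoplasmic reticulum, where lanosterol loses its extra methyl groups and its double bonds are moved and reduced. These genes are textbook targets of SREBP2, a transcription factor that is set free when sterols in the membrane run low, and which binds promoters together with NF-Y, a factor that recognises the letters CCAAT. A statin blocks the pathway many steps earlier, and a rise in the mRNA of the pathway enzymes is its known feedback. The comparisons ask how the antagonists alter the expression of these genes, and whether they alter the feedback response to the statin.

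Values are FPKM, fragments of a gene per kilobase of its length and scaled to the mapped fragments of its library, and so can be compared between genes of one library. The 3 tables were normalized separately, and ratios were taken within a table, to its own vehicle. A change is the log2 ratio of FPKM with 0.1 added to both values, and a gene was called lower or higher at 1.5-fold, a log2 ratio of 0.58. From the spacing of low FPKM values the depth was estimated at 9120000 to 10010000 fragments in HCC70, 18190000 to 19940000 in the MDA-MB468 table that holds XY018, and 8370000 and 8690000 in the GSK805 pair. Intervals in brackets are exact 95% Clopper-Pearson intervals of the ratio from the estimated fragments, and they cover counting error only. KRT5, KRT17 and EGFR, markers of basal-like breast epithelium, and EPCAM, a general epithelial marker, were at 40.2 FPKM or above in every library. KRT14, another basal marker, was at 0.45 to 10.6 FPKM. ESR1 was at 0.37 to 0.67 FPKM outside the GSK805 table, where it was 1.77 with vehicle and 5.67 with GSK805, PGR was listed at 0 in MDA-MB468 and had no row in HCC70, and ERBB2 was at 25.3 to 57.7 FPKM. The markers of other cells, PTPRC, PECAM1 and COL1A1, summed to 5.21 to 6.94 FPKM in the HCC70 libraries. In MDA-MB468 the sum was 5.77 FPKM with vehicle, 6.12 with ATV and 9.27 to 9.49 with XY018 alone or combined, and in the GSK805 table, which has no row for PECAM1, it was 10.4 with vehicle and 17.2 with GSK805. COL1A1 made up most of each sum, PTPRC was at 1.06 FPKM or less and PECAM1 at 1.21 or less, and the part of these markers in the results was not tested.

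The sequences just upstream of the 7 genes are shown, 150 bases ending at the base before the RefSeq start (GRCh38.p14), each read 5′ to 3′ on the strand of its gene. The part of these sequences in the changes was not tested. Capitals mark the letters CCAAT on either strand, which read ATTGG on the opposite one. The windows are chr11:65111722-65111871 for TM7SF2, chr4:165327519-165327668 for MSMO1, chrX:152830913-152831062 for NSDHL, chr1:162790552-162790701 for HSD17B7, chrX:48521658-48521807 for EBP, chr11:121292621-121292770 for SC5D and, on the minus strand, chr11:71448394-71448543 for DHCR7.
TM7SF2: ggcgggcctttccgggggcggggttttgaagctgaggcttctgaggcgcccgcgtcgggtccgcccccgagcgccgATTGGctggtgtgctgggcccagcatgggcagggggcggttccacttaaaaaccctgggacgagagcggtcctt
MSMO1: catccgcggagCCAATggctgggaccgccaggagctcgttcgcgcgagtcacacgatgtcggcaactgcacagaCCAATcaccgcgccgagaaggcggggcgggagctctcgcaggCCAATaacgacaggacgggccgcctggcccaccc
NSDHL: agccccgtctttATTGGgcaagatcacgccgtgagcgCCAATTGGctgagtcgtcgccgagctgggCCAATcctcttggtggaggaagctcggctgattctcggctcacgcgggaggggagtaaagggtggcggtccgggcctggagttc
HSD17B7: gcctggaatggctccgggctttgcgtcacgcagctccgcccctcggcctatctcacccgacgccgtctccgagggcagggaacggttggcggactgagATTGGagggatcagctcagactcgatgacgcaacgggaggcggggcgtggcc
EBP: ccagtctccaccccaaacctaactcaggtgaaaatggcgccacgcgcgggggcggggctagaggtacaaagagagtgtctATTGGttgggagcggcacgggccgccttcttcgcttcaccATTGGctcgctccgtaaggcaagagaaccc
SC5D: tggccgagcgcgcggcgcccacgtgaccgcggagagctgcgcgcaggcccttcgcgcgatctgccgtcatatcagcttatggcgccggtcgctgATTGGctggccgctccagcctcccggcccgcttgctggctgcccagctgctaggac
DHCR7: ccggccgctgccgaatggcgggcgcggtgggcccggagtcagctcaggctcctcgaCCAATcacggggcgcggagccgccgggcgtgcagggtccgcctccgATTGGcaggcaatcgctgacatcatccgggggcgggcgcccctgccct

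All 7 genes held CCAAT within 250 bases upstream of at least 1 listed start, as did 37% of the 27305 genes with a listed start and 32% of all 35116 starts. NSDHL held 5 matches, of which a pair overlapped, MSMO1 held 4, EBP 3, DHCR7 2, and TM7SF2, HSD17B7 and SC5D held 1 each. The match nearest the start began 30 to 84 bases upstream in all 7 genes. DHCR7 and SC5D have 2 listed starts each. The second DHCR7 start held no match, and the match of SC5D lies in the windows of both of its starts. Of 13 other enzymes of the pathway 9 had a listed start, and 7 of these held CCAAT. Of 9 genes that serve or may replace the 7 enzymes, 7 had a listed start, and 3 of these held CCAAT. The sterol element TCACCCCAC was in none of the 7 genes (0.45% of genes), and its looser form TCACNCNAC, which includes it among its matches, was in HSD17B7 (2.48% of genes). Of the 9 other pathway enzymes with a listed start, 0 held TCACCCCAC and 1 held the looser form. The GC box GGGCGG was in 6 of the 7 genes, all but NSDHL (46.2% of genes), and the E-box CACGTG was in SC5D (7.73%). The letters AGGTCA, the core of a site for ROR receptors, were found upstream of the second DHCR7 start (14.6% of genes), and the longer TAGGTCA, which contains them, in none of the 7 genes (2.01%). Both strands were searched for each motif. These are matches of letters and not measured binding sites. The putative ROR sites that the paper mutated in the promoters of the pathway genes MVK and HMGCS1 lack AGGTCA on both strands. The search for AGGTCA would therefore miss sites of that form, and whether the 7 genes hold such sites was not tested. The MVK site includes the letters ATTGG, which were counted here as CCAAT.

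**Figure D1:**
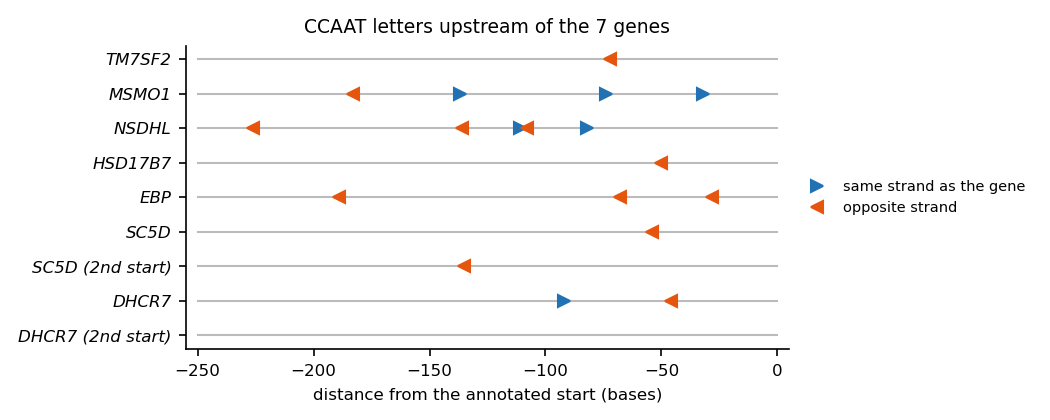
Matches to CCAAT in the 250 bases upstream of the listed starts of the 7 genes, 1 line per start, with distance from the start in bases on the horizontal axis. Triangles that point right are on the strand of the gene and those that point left on the opposite strand. Each gene has a match at 84 bases or less from its first start.

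In vehicle-treated cells the 7 genes spanned 11.4 to 97.7 FPKM in HCC70. MSMO1 and DHCR7 were highest, with counting intervals that overlapped, followed by EBP, NSDHL, TM7SF2, HSD17B7 and SC5D. In the vehicle library of MDA-MB468 with XY018 and ATV, DHCR7 alone made up 46.5% of the summed FPKM of the 7 genes. NSDHL and EBP followed with overlapping intervals, then MSMO1, TM7SF2, SC5D and HSD17B7. With the vehicle of the GSK805 table the order was DHCR7, EBP, NSDHL, SC5D, MSMO1, TM7SF2 and HSD17B7, and no neighbours overlapped. The summed level of the 7 genes was 341 FPKM with vehicle in HCC70, 162 and 128 FPKM with XY018 at 1.25 and 2.5 μM, 425 FPKM with ATV and 149 FPKM with both. In MDA-MB468 the sum was 572 FPKM with vehicle, 323 and 263 FPKM with XY018, 954 FPKM with ATV and 207 FPKM with both, and in the GSK805 table it was 1016 FPKM with vehicle and 303 FPKM with GSK805. In each table the sum was lower in every library with an antagonist than with vehicle, and it was higher with ATV alone in the 2 tables that hold ATV.

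**Figure D2:**
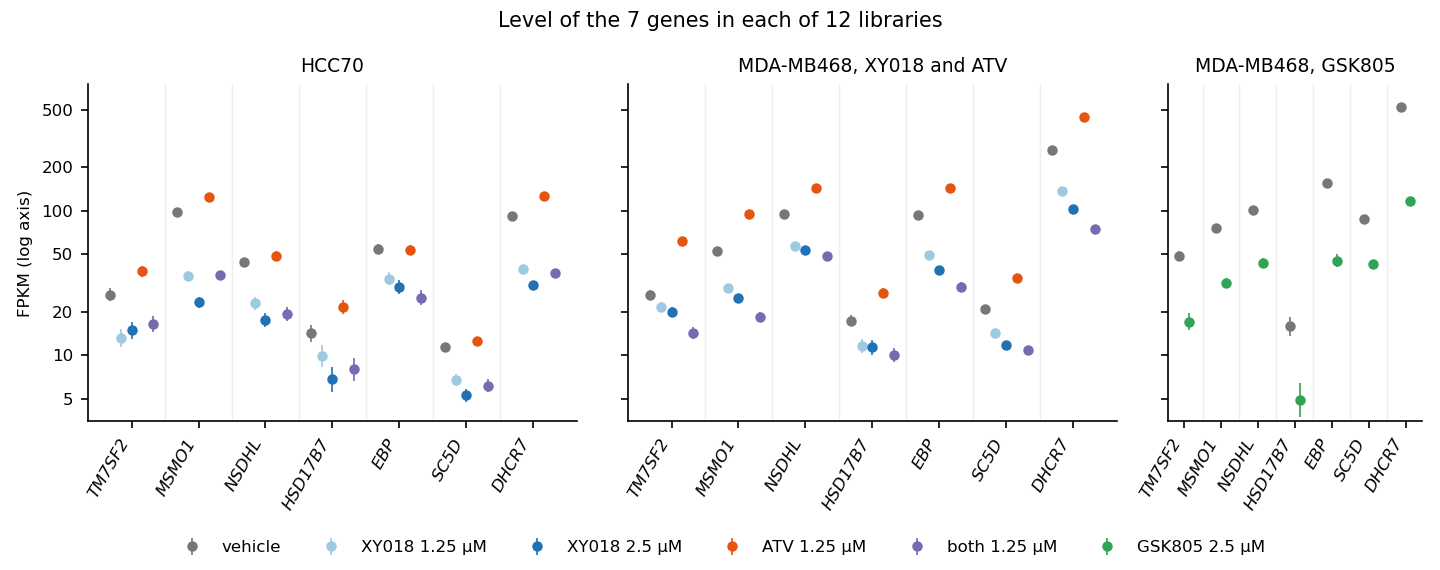
FPKM of the 7 genes on a log axis in each of the 12 libraries, 1 panel per table and 1 point per library. Bars are exact 95% counting intervals, and many are smaller than the point. Every antagonist point lies below the vehicle point of the same gene, and the ATV point lies above it except for EBP in HCC70.

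TM7SF2 encodes the sterol C14-reductase, which reduces the double bond that CYP51A1 leaves. It lies at chr11:64879317-64883856 on the plus strand (GRCh37). Its level in HCC70 was 26.4 FPKM with vehicle, 13.3 with XY018 at 1.25 μM, 14.9 with 2.5 μM, 38.2 with ATV and 16.5 with both. In MDA-MB468 it was 26.3 FPKM with vehicle, 21.6 and 20 with XY018, 61.7 with ATV and 14.4 with both. With GSK805 it was 17.2 FPKM, against 48.8 with vehicle. The higher dose of XY018 did not give the lower level in HCC70, and of the 7 genes TM7SF2 had the smallest fall with XY018 at both doses in MDA-MB468. It also had the largest rise with ATV there.

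MSMO1 encodes the C4-methylsterol oxidase, which begins the removal of the methyl groups at C4. It lies at chr4:166248819-166264316 on the plus strand. In HCC70 its level was 97.7 FPKM with vehicle, 35.6 and 23.4 with XY018 at the lower and the higher dose, 124 with ATV and 36.1 with both. In MDA-MB468 the values were 52.7 FPKM with vehicle, 29.4 and 25 with XY018, 94.9 with ATV and 18.6 with both. GSK805 gave 31.8 FPKM, against 76.1 with vehicle. MSMO1 fell furthest of the 7 genes in HCC70 at both doses of XY018, to a level 4.17-fold below vehicle at 2.5 μM.

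NSDHL, the sterol C4-decarboxylase, carries on the removal of the C4 methyl groups, and its mutations cause the skin and limb disorder known as CHILD syndrome. The gene lies at chrX:151999511-152038273 on the plus strand. Its level in HCC70 was 44.1 FPKM with vehicle, 22.9 and 17.7 with XY018, 49.1 with ATV and 19.4 with both. The MDA-MB468 levels were 95.2 FPKM with vehicle, 57.6 and 53.9 with XY018, 143 with ATV and 48.7 with both. With GSK805 it was 43.7 FPKM, against 102 with vehicle. NSDHL was called lower in all 7 libraries with an antagonist, alone or with ATV, as were MSMO1, EBP and DHCR7.

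HSD17B7 encodes the 3-ketosteroid reductase that completes C4 demethylation, at chr1:162760492-162782613 on the plus strand. It was at 14.3 FPKM with vehicle in HCC70, 9.93 and 6.89 with XY018, 21.5 with ATV and 8 with both. In MDA-MB468 it was at 17.4 FPKM with vehicle, 11.7 and 11.4 with XY018, 27.2 with ATV and 10.1 with both. GSK805 gave 4.94 FPKM, an estimated 57 fragments, against 15.9 FPKM with vehicle. HSD17B7 had the widest counting intervals of the 7 genes in the GSK805 pair, and its pseudogenes could share its reads. In the GSK805 table HSD17B7P1 went from 2.34 to 0.85 FPKM and HSD17B7P2 from 5.12 to 1.42, while in the other tables neither has a row.

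EBP encodes the sterol isomerase that shifts a double bond within the second ring, and it is named for the drug emopamil, which it binds. It lies at chrX:48380187-48387104 on the plus strand. Its level in HCC70 was 54.7 FPKM with vehicle, 34 and 29.7 with XY018, 53.4 with ATV and 25.1 with both. In MDA-MB468 the level was 93.4 FPKM with vehicle, 49.6 and 38.9 with XY018, 145 with ATV and 29.9 with both. With GSK805 it was 45.3 FPKM, against 157 with vehicle. EBP in HCC70 was the one case of the 14 in which a gene was not above vehicle with ATV.

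SC5D encodes the sterol C5-desaturase, which makes the double bond that cholesterol keeps. The gene lies at chr11:121163390-121184119 on the plus strand. In HCC70 it was at 11.4 FPKM with vehicle, 6.81 and 5.31 with XY018, 12.6 with ATV and 6.19 with both. In MDA-MB468 it was at 20.8 FPKM with vehicle, 14.4 and 11.7 with XY018, 34.4 with ATV and 10.9 with both. With GSK805 it was at 43.1 FPKM, against 88.1 with vehicle. The vehicle level of SC5D differed by 2.07 on the log2 scale between both MDA-MB468 tables, the widest gap of the 7 genes, and the tables use different annotations. The part of annotation and of the experiment in this gap cannot be told apart.

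DHCR7 reduces 7-dehydrocholesterol to cholesterol, and its deficiency causes Smith-Lemli-Opitz syndrome. It lies at chr11:71139239-71163914 on the minus strand. Its level in HCC70 was 92 FPKM with vehicle, 39.6 and 30.6 with XY018, 126 with ATV and 37.4 with both. MDA-MB468 cells had 266 FPKM with vehicle, 138 and 103 with XY018, 448 with ATV and 74.5 with both. With GSK805 it was 117 FPKM, against 528 with vehicle. DHCR7 had the lowest ratio of the 7 genes in each antagonist library of MDA-MB468, and in HCC70 it was second to MSMO1. Its counting interval overlapped that of EBP with XY018 alone at both doses in MDA-MB468. In HCC70 it overlapped that of NSDHL in each antagonist library, and that of MSMO1 with both compounds.

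Neighbouring genes could add reads to some of these values, since the sources used here do not state whether reads were counted by strand. The start of TM7SF2 overlaps the end of VPS51, on the same strand, by 18 bases. VPS51 was at 31.8 FPKM with vehicle in HCC70 and 32.9 to 35.7 FPKM with XY018 alone or with ATV. In MDA-MB468 it was at 44 FPKM with vehicle and 51.6 to 54.2 FPKM with XY018 alone or with ATV. In the GSK805 pair it was at 169 FPKM with vehicle and 198 FPKM with GSK805. DHCR7 overlaps an antisense long non-coding RNA over 3596 bases, and EBP overlaps a longer annotated gene on its own strand over 6911 bases. The part of these genes in the results was not tested.

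With XY018 the 7 genes were lower in HCC70, and MSMO1 and DHCR7 fell furthest. At 1.25 μM the median log2 ratio was −0.94, and 6 of the 7 genes were called lower, against 2.64% of all genes compared. The exception was HSD17B7, at −0.52 (−0.84 to −0.20). MSMO1 changed by −1.46 (−1.58 to −1.33), an interval below those of the other 6 genes, and DHCR7 by −1.21 (−1.33 to −1.11). At 2.5 μM the median was −1.09 and all 7 genes were called lower, where 3.26% of all genes were. The ratios at this dose ran from −2.06 (−2.21 to −1.92) for MSMO1 to −0.82 (−1.06 to −0.58) for TM7SF2. At either dose all 7 ratios lay below the 5th percentile of all genes. Among the basal markers KRT5 and KRT17 were also called lower at both doses, at −0.90 and −0.72 at 2.5 μM, and their part in these results was not tested. Bulk libraries cannot tell a fall in each cell from a fall in the share of cells that express a gene.

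In MDA-MB468 the falls with XY018 were smaller at the median, and more genes changed overall. At 1.25 μM the median log2 ratio was −0.72 and 4 of the 7 genes were called lower, against 8.37% of all genes. TM7SF2, at −0.28 (−0.43 to −0.13), SC5D, at −0.53 (−0.62 to −0.45), and HSD17B7, at −0.57 (−0.78 to −0.38), were not called. At 2.5 μM the median was −0.82 and 6 of the 7 genes were called lower, against 14.5% of all genes, with TM7SF2 at −0.39 (−0.55 to −0.24) the exception. DHCR7 changed by −1.37 (−1.42 to −1.33), EBP by −1.26 (−1.38 to −1.14) and MSMO1 by −1.07 (−1.18 to −0.97). These 3 genes lay below the 5th percentile of all genes at both doses, and the other 4 lay within the central range. The basal markers KRT5 and KRT14 were called lower at both doses too, at −1.48 and −3.10 at 2.5 μM, and KRT17 at 2.5 μM, at −0.66, and their part in these results was not tested. At 2.5 μM the widest gap between the lines was that of MSMO1, at −2.06 in HCC70 and −1.07 in MDA-MB468. EBP, at −0.88 in HCC70 and −1.26 in MDA-MB468, was the only one of the 7 genes with the lower ratio in MDA-MB468. How many of all genes differ as much was not computed. The lines are in separately normalized tables with 1 library per condition, so line and experiment cannot be told apart.

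**Figure D3:**
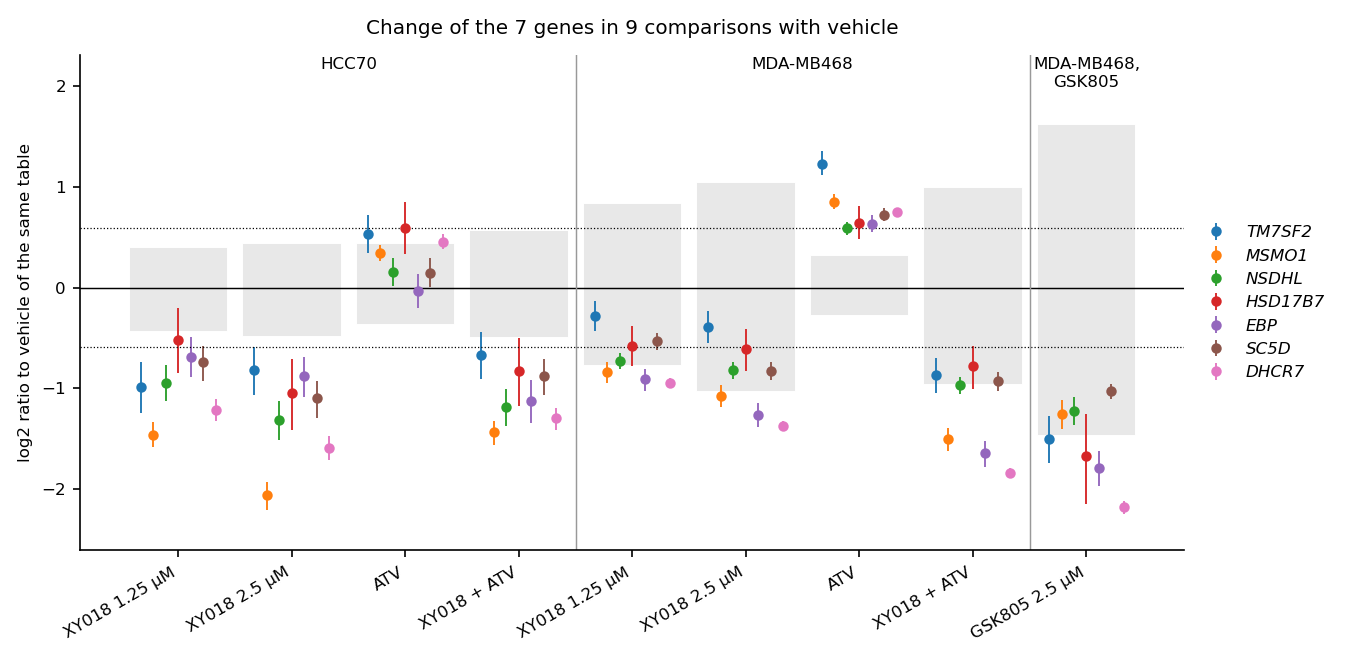
Log2 ratio of each of the 7 genes to the vehicle of its own table in 9 comparisons, with exact 95% counting intervals. Grey boxes span the 5th to the 95th percentile of all genes compared, and dotted lines mark 1.5-fold. All 7 genes lie below the grey box in the 3 HCC70 comparisons with XY018, and all 7 lie above it with ATV in MDA-MB468.

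The step from 1.25 to 2.5 μM XY018 was small for most of the 7 genes. In HCC70 the median log2 ratio of the higher to the lower dose was −0.37, and 1 of the 7 genes was called lower, MSMO1 at −0.60 (−0.77 to −0.44), against 1.36% of all genes. The interval lay below 0 for 5 of the 7 genes and held 0 for EBP, at −0.19 (−0.42 to 0.03), and for TM7SF2, at 0.17 (−0.12 to 0.45). In MDA-MB468 the median was −0.23 and none of the 7 genes was called lower, against 1.73% of all genes. There the interval lay below 0 for 5 genes, led by DHCR7 at −0.43 (−0.49 to −0.38), and held 0 for TM7SF2 and HSD17B7, the latter at −0.03 (−0.26 to 0.19).

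GSK805 at 2.5 μM gave a median log2 ratio of −1.50, and all 7 genes were called lower, against 16.6% of all genes in that table. DHCR7 changed by −2.17 (−2.24 to −2.11), a 4.51-fold lower level, and EBP by −1.79 (−1.97 to −1.62). SC5D had the smallest fall, at −1.03 (−1.10 to −0.96). DHCR7, EBP, HSD17B7 and TM7SF2 lay below the 5th percentile of all genes, −1.46, and the other 3 lay within the central range. In this table the 10 most abundant genes of a library held 46.5% of its summed FPKM with vehicle and 50.1% with GSK805, against 6.72% to 16.6% in the other 10 libraries, and the part of this in the results was not tested. At the same dose and time in the same line, XY018 gave −1.37 for DHCR7, −1.26 for EBP and −0.82 for SC5D. TM7SF2 was at −1.50 (−1.74 to −1.27) with GSK805 and −0.39 with XY018, and HSD17B7 at −1.67 (−2.15 to −1.25) and −0.61. Each of the 7 genes had the lower ratio with GSK805. For MSMO1 the counting intervals overlapped, at −1.26 (−1.40 to −1.11) and −1.07 (−1.18 to −0.97). The ratios of all genes were also more spread with GSK805, with a 5th percentile of −1.46 against −1.02 with XY018. The share of all genes with the lower ratio with GSK805 was not computed. The compounds were tested in separate tables with their own vehicles, so compound and experiment cannot be told apart.

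With ATV alone all 7 genes were higher in MDA-MB468, and the rises were smaller in HCC70. In MDA-MB468 the median log2 ratio was 0.72, and all 7 genes were called higher, against 1.37% of all genes. TM7SF2 rose by 1.23 (1.11 to 1.35), to a level 2.34-fold that of vehicle, and NSDHL had the smallest rise, at 0.59 (0.53 to 0.65), just past the threshold. In HCC70 the median was 0.34 and 1 of the 7 genes was called higher, HSD17B7 at 0.59 (0.34 to 0.85), also just past the threshold, against 2.22% of all genes. The intervals of 6 of the 7 genes lay above 0. TM7SF2 at 0.53 (0.35 to 0.72), DHCR7 at 0.45 (0.38 to 0.53) and MSMO1 at 0.34 (0.26 to 0.43) were among them without being called, as were NSDHL at 0.16 (0.02 to 0.30) and SC5D at 0.14, whose interval began just above 0. For EBP, at −0.04 (−0.20 to 0.13), the interval held 0.

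With XY018 and ATV together, all 7 genes were below vehicle in both lines. In HCC70 the median log2 ratio to vehicle was −1.12 and all 7 genes were called lower, against 2.93% of all genes. In MDA-MB468 it was −0.96, again with all 7 genes called lower, against 12.2% of all genes. DHCR7 was at −1.30 (−1.41 to −1.19) in HCC70 and −1.83 (−1.89 to −1.78) in MDA-MB468, and TM7SF2 at −0.67 (−0.90 to −0.44) and −0.87 (−1.04 to −0.70). Set against ATV alone, all 7 genes were called lower in both lines, with medians of −1.34 in HCC70 and −2.09 in MDA-MB468, against 2.54% and 11.1% of all genes. The largest of these differences was that of DHCR7 in MDA-MB468, at −2.59 (−2.64 to −2.54). In HCC70 it was that of MSMO1, at −1.78 (−1.90 to −1.67).

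Adding ATV to XY018 gave different values in the 2 lines. In MDA-MB468 the levels with both compounds were below those with XY018 alone at the same dose, with a median log2 ratio of −0.59, and 4 of the 7 genes were called lower, against 1.76% of all genes. These were DHCR7 at −0.89 (−0.95 to −0.84), EBP at −0.73 (−0.88 to −0.59), MSMO1 at −0.66 (−0.79 to −0.53) and TM7SF2 at −0.59 (−0.77 to −0.41). In HCC70 the median was −0.14 and none of the 7 genes was called in either direction, where 1.96% of all genes were called lower and 3.75% higher. EBP, at −0.44 (−0.67 to −0.21), and NSDHL, at −0.24 (−0.46 to −0.03), had intervals below 0, and TM7SF2, at 0.31 (0.04 to 0.60), had one above 0.

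The change with ATV was thus measured without and with XY018. In MDA-MB468 each gene rose with ATV in the absence of XY018 and had a ratio below 0 in its presence. The difference between these changes was between −1.81 for TM7SF2 and −0.83 for NSDHL, with a median of −1.36. In HCC70 the difference ran from −0.90 for HSD17B7 to −0.21 for TM7SF2, with a median of −0.40. The difference was not computed for all genes, so how usual such values are is not known. Intervals of this difference are 95% normal approximations from the estimated fragments, not Clopper-Pearson intervals. For TM7SF2 in HCC70 the interval, −0.54 to 0.11, held 0.

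**Figure D4:**
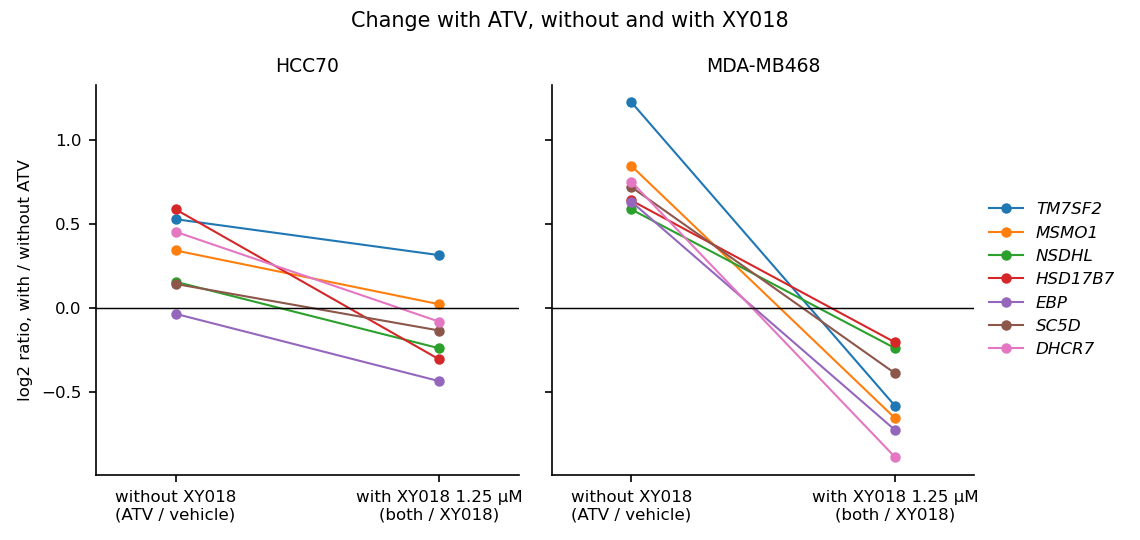
Log2 ratio of FPKM with ATV to FPKM without it, in the absence of XY018 (ATV against vehicle) and in its presence (both against XY018 at 1.25 μM), 1 line per gene and 1 panel per cell line. In MDA-MB468 all 7 lines run from above 0 to below 0, and in HCC70 TM7SF2 and MSMO1 end above 0 and the other 5 below.

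The 13 enzymes of cholesterol synthesis from ACAT2 to CYP51A1 were compared with the 7 late genes. With XY018 in HCC70 11 of the 13 were called lower at each dose, against 2.64% and 3.26% of all genes. The medians of the 13 were −1.38 and −1.66, beside −0.94 and −1.09 for the late genes. SQLE, the squalene epoxidase, fell furthest at 2.5 μM, to −2.85. In MDA-MB468 6 and 10 of the 13 were called lower, against 8.37% and 14.5% of all genes. The medians there were −0.51 and −0.83, beside −0.72 and −0.82 for the late genes. With GSK805 11 of the 13 were called lower, against 16.6% of all genes, with a median of −1.67. HMGCS1, which makes HMG-CoA, was at −2.75. With ATV 2 of the 13, MVD and LSS, were called higher in HCC70, against 2.22% of all genes, and 10 in MDA-MB468, against 1.37%. With both compounds 11 were called lower in each line, against 2.93% of all genes in HCC70 and 12.2% in MDA-MB468. PMVK, a kinase of the mevalonate segment, and GGPS1, which leads into the isoprenoid branch, were not called in any of the 9 comparisons with vehicle.

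Along the late segment the enzyme before the 7 genes, CYP51A1, was at −2.16 in HCC70 and −1.21 in MDA-MB468 with XY018 at 2.5 μM, values near those of MSMO1, at −2.06 and −1.07. With GSK805 CYP51A1 was at −1.77 (−1.97 to −1.59) and MSMO1 at −1.26 (−1.40 to −1.11). With both compounds they were at −1.68 (−1.82 to −1.56) and −1.43 (−1.56 to −1.32) in HCC70, and at −1.32 and −1.50 in MDA-MB468.

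A further 9 genes serve or may replace these enzymes, and their medians with XY018 were −0.09 and −0.15 in HCC70 and −0.34 and −0.55 in MDA-MB468. Of the 9 genes, 1 was called lower in each of the 3 HCC70 comparisons with XY018, C14orf1, whose product, known as ERG28, holds the C4 demethylation enzymes together in yeast. C14orf1 was at −0.74 (−0.85 to −0.63) at 1.25 μM, −1.23 (−1.35 to −1.12) at 2.5 μM and −1.12 (−1.24 to −1.01) with both compounds. The shares of all genes called lower in these 3 were 2.64%, 3.26% and 2.93%. In MDA-MB468 none of the 9 was called lower at 1.25 μM, against 8.37% of all genes, and 4 were at 2.5 μM, against 14.5%, LBR, C14orf1, EBPL and CYB5A. LBR, the lamin B receptor, has the same sterol C14-reductase activity as TM7SF2. In HCC70 it was at 28.6 FPKM with vehicle and 27 and 27.7 FPKM with XY018, so its ratio at 2.5 μM was −0.05 (−0.17 to 0.08), beside −0.82 for TM7SF2. In MDA-MB468 at this dose LBR was at −0.90 (−1.05 to −0.77) and TM7SF2 at −0.39 (−0.55 to −0.24). With both compounds in that line LBR was at −0.72 and TM7SF2 at −0.87, and with GSK805 they were at −0.38 and −1.50. With ATV in MDA-MB468 LBR was at 0.12 and TM7SF2 at 1.23.

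EBPL, a paralog of EBP, was at −0.16 in HCC70 and −0.71 in MDA-MB468 with XY018 at 2.5 μM, and at 0.26 with GSK805. FAXDC2, which carries a fatty acid hydroxylase domain like that of MSMO1, was called higher with both compounds in MDA-MB468, at 0.64, and with GSK805, at 0.67. Its vehicle levels were 1.87 and 2.54 FPKM. In the same comparisons 13.1% and 17.6% of all genes were called higher. The genes of the electron supply, CYB5A, CYB5B, CYB5R3 and POR, together with PGRMC1, lay between −0.61 and 0.47 in the 9 comparisons with vehicle. Of these 5, CYB5A passed the threshold downward with XY018 at 2.5 μM, and PGRMC1 and CYB5B did with both compounds, all in MDA-MB468. The shares of all genes called lower there were 14.5% with XY018 at 2.5 μM and 12.2% with both compounds. With GSK805 1 of the 9 was called lower, C14orf1 at −1.40 (−1.74 to −1.09), against 16.6% of all genes. With ATV 1 was called higher, C14orf1 in MDA-MB468 at 0.67 (0.59 to 0.76), against 1.37%.

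**Figure D5:**
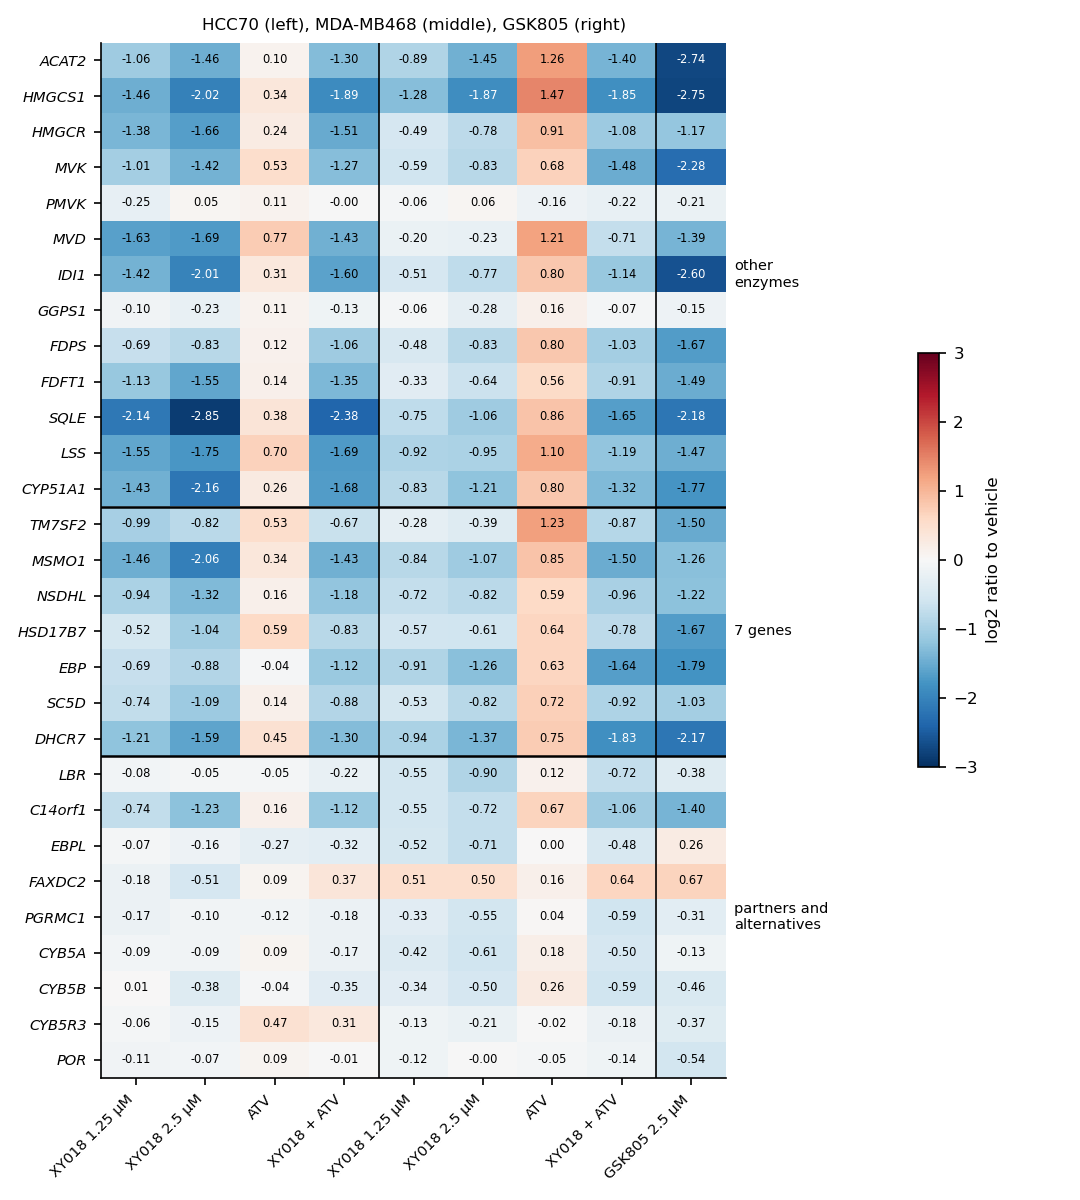
Log2 ratios to vehicle, printed in each cell and coloured from −3 (blue) to 3 (red), for 13 other enzymes of cholesterol synthesis, the 7 genes and 9 partner or alternative genes (rows) in 9 comparisons (columns). HCC70 is at the left, MDA-MB468 in the middle and GSK805 at the right. C14orf1 has the colours of the 7 genes, while PMVK, GGPS1 and POR are pale.

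Likeness of pattern was measured as the root mean square difference in log2 ratio over the 9 comparisons with vehicle, among 7127 of 15852 shared symbols that reached 5 FPKM in the vehicle libraries of all 3 tables. Several of the 9 share a vehicle, and the measure is a description. The gene nearest to the median of the 7 was C14orf1, at 0.13, followed by FDPS, the farnesyl diphosphate synthase, at 0.18, FDFT1, the squalene synthase, at 0.25, and MMAB, at 0.25. The median over the genes compared was 0.97. MMAB acts on vitamin B12 and shares a promoter region with MVK. The nearest gene outside the 7 was C14orf1 for NSDHL and SC5D, at 0.12 and 0.17, CYP51A1 for MSMO1, at 0.21, MMAB for HSD17B7 and TM7SF2, at 0.22 and 0.29, MVK for DHCR7, at 0.27, and FDPS for EBP, at 0.30. The measure for the 7 genes themselves, against their own median, ran from 0.14 for NSDHL to 0.46 for DHCR7.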

How the data were processed

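RNA was sequenced from 12 cultures of 2 cell lines, with TruSeq libraries from total RNA, and 1 library per condition was grouped by its label. The authors aligned reads to GRCh37/hg19 using BWA and Bowtie, and Cufflinks gave the gene values (versions not given in the sources used here), and the deposited values are their FPKM, although the headers name no unit. The GSK805 table has several entries for some names, and the one with the highest mean was kept. Ratios used a pseudocount of 0.1 and genes at 1 FPKM or above in a library compared. Fragments were estimated from FPKM, transcript length and depth, and the depth from the spacing of low FPKM values with 13 length offsets up to 240 nt. SC5D was given a transcript of 6854 nt, so its intervals would be wider on a shorter one. Depth and ratios were tested on simulated data. No test was run across samples. The members and gene lists were chosen with earlier results of these data known. The genes named are the 7, every gene of the lists, the markers, copies and neighbours of the 7, and those with the nearest pattern, and some of these are not reported here. Alternatives were the pseudocount, the filter, rescaling, the threshold, the vehicle used for GSK805 and summed entries. Coordinates of genes come from GENCODE v44lift37 (GRCh37), and upstream sequences from RefSeq (GRCh38.p14), where all 7 matched by symbol. The software was Python 3.11.15 with scipy 1.17.1, pandas 2.3.3, numpy 2.4.6 and, for plots, matplotlib 3.10.9.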

Additional observations from a re-analysis of the deposited data

Results flagged for a closer look

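TM7SF2 moved in opposite directions in the 2 lines when both compounds were compared with XY018 alone. The log2 ratio was 0.31 in HCC70, from 13.3 FPKM with XY018 to 16.5 FPKM with both, and −0.59 in MDA-MB468, from 21.6 to 14.4 FPKM. It was flagged because each line has its own direction with a counting interval that leaves out 0. The difference between the lines was not tested, since each value rests on 1 library per condition.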

How the results depend on the processing

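No paired analysis was possible because each condition has 1 library, so the groups compared share fewer than 2 replicate numbers, and no fit over both lines was run, since their tables were normalized separately. With a pseudocount of 0.01 or 1, with the filter dropped or raised to 5 FPKM, with each comparison centred on the median of all genes (shifts of −0.02 to 0.01), and with entries of 1 name summed, the medians of the 7 genes stayed within the counting interval of their median gene and the counts within 1.5 times, except that with a pseudocount of 1 the count higher with ATV in HCC70 was 0 in place of 1. At a 2-fold threshold the number of the 7 genes lower fell in HCC70 to 2 with XY018 at 1.25 μM (0.605% of all genes compared). It fell there to 5 with XY018 at 2.5 μM (0.887%) and to 4 with both compounds (0.873%). In MDA-MB468 it fell to 0 and 3 with XY018 at the lower and the higher dose (2.3% and 5.26% of all genes) and 3 with both (4.38%). It was 0 for the dose step in HCC70 (0.385%) and for both compounds against XY018 in MDA-MB468 (0.39%), and with ATV 0 genes in HCC70 (0.451%) and 1 in MDA-MB468 (0.342%) were higher. Set against the vehicle of the XY018 and ATV table, GSK805 gave a median of −1.04 and turned SC5D to 1.05, as its vehicle levels differ between the separately normalized tables. Levels with few fragments, such as HSD17B7 in the GSK805 library, are the least precise.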
